A study of Bos taurus with 20 samples.

Results

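The genes described here encode the inhibin and activin subunits (INHA, INHBA and INHBB), the activin-binding protein follistatin (FST), the anti-Müllerian hormone (AMH) and its type II receptor (AMHR2). They were chosen by symbol, as the probes whose gene name on the array is 1 of these 6, and 16 of the 61325 probes and 6 of the 22550 genes or transcripts on the array matched. Gene expression was measured on a custom bovine Agilent array, from 200 ng of total RNA a sample labelled with Cy3 only. The 20 arrays fall into 5 groups of 4 biological replicates from follicles of 3 to 6 mm, taken from cattle ovaries after slaughter. They are theca cells (TH) scraped from the follicle wall, GC (the granulosa), CC (the cumulus around the oocyte) and OO (oocytes), all labelled immature, and CC detached after 4 h of in vitro maturation (IVM). No group carries a genetic change, the labels give no age of the animals, and the sources used here do not name the medium of the 4 h IVM. All are cell preparations in bulk, so fewer cells of a type and less RNA per cell cannot be told apart.

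Inhibins and activins are dimers that share their beta subunits. INHA pairs with a beta subunit to make an inhibin, while dimers of the beta subunits INHBA and INHBB are activins, which signal through type I and type II receptor kinases and SMAD2 and SMAD3 and raise FSH secretion and granulosa cell function. Inhibin, helped by the coreceptor betaglycan (TGFBR3), occupies the type II receptors without signalling and lowers FSH, and follistatin binds activin and keeps it from its receptors. AMH is made by the granulosa cells of growing follicles, where it restrains follicle recruitment and the response to FSH, and it signals through AMHR2 and the SMAD1, SMAD5 and SMAD9 branch.

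Each gene was read by 60-base probes. INHA, INHBA, INHBB, FST and AMH had 2 probes each, and AMHR2 had 6. In the UMD 3.1 assembly of the array files, the transcript probed for INHA lies at chr2:108226858-108229830, that for INHBB at chr2:72523471-72527172, that for INHBA at chr4:79986254-79997754, that for FST at chr20:25588642-25594057 and that for AMH at chr7:22696978-22699843. AMHR2 was probed through 2 transcripts, at chr5:26753574-26759487 and chr5:26753260-26761653. The probes of INHA shared 40 bases with each other, those of INHBA 54 and those of FST 32, so they read nearly the same stretch and are not independent readings. The probes of INHBB shared only 1 base and those of AMH 3. The sequences shown here are the INHBB pair and the first AMH probe, which read separate stretches of their transcript, and AMHR2 probes 5 and 6, which gave different readings of 1 transcript. The capitals mark the 49 bases of AMHR2 probe 6 that AMHR2 probe 1 also holds. AMHR2 probe 5 shares no such stretch with the other AMHR2 probes.
INHBB probe 1: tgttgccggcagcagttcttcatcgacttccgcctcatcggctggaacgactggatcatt
INHBB probe 2: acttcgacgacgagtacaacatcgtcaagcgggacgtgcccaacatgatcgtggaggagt
AMH probe 1: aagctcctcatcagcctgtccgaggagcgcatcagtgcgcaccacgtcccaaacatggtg
AMHR2 probe 5: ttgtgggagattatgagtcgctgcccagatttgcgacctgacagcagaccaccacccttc
AMHR2 probe 6: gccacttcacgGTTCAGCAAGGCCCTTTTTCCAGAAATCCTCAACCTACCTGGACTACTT

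All levels below are log2 processed intensities set to 0 at the 75th percentile of their array, with the median taken over the spots of a gene, and the levels of different genes cannot be compared. A gene was called different where limma gave an adjusted p under 0.05 over all 22550 genes. Between 49.3% and 68.8% of probes were well above background on an array, the lowest and the highest both in OO, and no spot was saturated. The arrays of TH, GC, CC and OO were spread over slides 1 and 2, while all 4 arrays of CC after IVM lay on slide 3, so slide and maturation cannot be told apart. The labelled cells carried their defining markers. The theca list of 8 genes had a log2 summed level of 9.29 to 9.79 in TH against 3.50 to 6.89 in the other groups. Of this list, STAR was higher in OO (3.43 ± 0.11) than in TH (2.27 ± 0.34). The oocyte list of 9 genes had 8.25 to 8.61 in OO against -2.43 to 1.72 in the other groups. The granulosa and cumulus list (FSHR, CYP19A1, FOXL2, HSD17B1, GJA1 and SERPINE2) had 6.78 to 7.52 in GC, 7.31 to 7.74 in CC and 7.18 to 7.93 in CC after IVM. It stood at 5.33 to 5.55 in TH, where 5 of the 6 were above background on at least 3 arrays, and at 0.51 to 0.73 in OO, where 3 of the 6 were and CYP19A1 and FOXL2 were on no array.

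The alpha subunit INHA was high in all the somatic cells and low in OO. Its level was 7.92, 7.00, 7.53 and 7.22 in TH, 8.85, 7.92, 8.77 and 8.81 in GC, 8.76, 8.54, 8.75 and 8.63 in CC, 9.30, 9.09, 9.30 and 9.56 in CC after IVM, and 0.99, 0.21, 0.89 and 0.71 in OO. The 4 OO arrays lay far below all 16 somatic arrays, the lowest GC array lay level with the highest TH array, and GC overlapped CC. In order of mean the groups were CC after IVM (9.31 ± 0.19, SD, n = 4), CC (8.67 ± 0.11), GC (8.59 ± 0.45), TH (7.42 ± 0.40) and OO (0.70 ± 0.35). The difference between the neighbours CC and GC was 0.08 ± 0.25 on the log2 scale (standard error, adjusted p = 0.87), smaller than the spread. INHA was 2.25-fold higher in GC than in TH (adjusted p = 0.0023) and 251-fold lower in OO than in CC (adjusted p = 4.1e-13).

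The beta A subunit INHBA was lowest in OO, higher in TH and highest in the granulosa and cumulus cells. Its level was 4.16, 4.03, 3.67 and 4.49 in TH, 7.45, 6.45, 6.60 and 8.63 in GC, 8.35, 8.27, 8.35 and 8.29 in CC, 9.46, 9.40, 9.19 and 9.49 in CC after IVM, and 1.04, 1.05, 1.25 and 1.51 in OO. The CC arrays were tight, while GC replicate 4 stood above every CC array and the other GC arrays below them. INHBA was 9.18-fold higher in GC than in TH (3.20 ± 0.36 on the log2 scale, adjusted p = 7.8e-06) and 137-fold lower in OO than in CC (adjusted p = 8e-11). Between CC and GC the difference of 1.03 ± 0.36 did not pass the test (adjusted p = 0.093), and without GC replicate 4 it was 1.48 and did (adjusted p = 0.0013).

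The beta B subunit INHBB, the other activin chain, was detected in GC, CC and CC after IVM and in no other group. It was not well above background on any TH or OO array, and lay at -7.45 to -6.74 and -8.87 to -6.18 there. In GC its level was -3.57, -3.52, -4.26 and -2.81, in CC -1.63, -1.60, -1.87 and -2.04, and in CC after IVM -1.45, -1.69, -0.55 and -0.07. No GC array reached the CC arrays, and CC and CC after IVM overlapped. INHBB was at least 3.35-fold higher in GC than in TH (adjusted p = 3e-05) and at least 17.3-fold lower in OO than in CC (adjusted p = 1e-08), where each array of the dim group counts at its own value or at the array's detection limit (its dimmest probe called well above background), whichever is higher. It was 3.38-fold higher in CC than in GC (1.76 ± 0.47 on the log2 scale, adjusted p = 0.028). That last call was lost, at an adjusted p of 0.05 to 0.095, without any 1 of the 4 CC arrays or of GC replicates 1, 2 and 3. The INHBB probes, which read separate stretches, gave 1.71 and 1.80 for it.

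FST, the binding protein of activin, followed the same order across the 4 cell types as INHBA. Its level was 3.96, 3.73, 3.29 and 4.33 in TH, 7.65, 6.89, 7.09 and 7.86 in GC, 8.21, 8.04, 8.18 and 7.97 in CC, 7.03, 6.35, 7.21 and 7.69 in CC after IVM, and 0.34, -0.17, 0.34 and 0.34 in OO. The CC arrays lay above every other array, and CC after IVM overlapped GC. FST was 11.7-fold higher in GC than in TH (3.55 ± 0.25 on the log2 scale, adjusted p = 6.8e-08) and 237-fold lower in OO than in CC (adjusted p = 4.1e-13). Although no CC array overlapped GC, the difference of 0.73 ± 0.25 did not pass the test (adjusted p = 0.08). Without GC replicate 4 it was 0.89 with an adjusted p of 0.032.

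AMH was highest in CC. Its level was 3.12, 2.38, 2.42 and 3.42 in TH, 4.79, 4.29, 4.14 and 5.53 in GC, 5.93, 6.05, 5.78 and 6.11 in CC, 4.64, 4.30, 5.19 and 5.60 in CC after IVM, and -2.25, -3.15, -2.61 and -2.60 in OO. The CC arrays again stood above all others, and GC and CC after IVM covered nearly the same range. AMH was 2.44-fold higher in CC than in GC (1.28 ± 0.31 on the log2 scale, adjusted p = 0.015), 3.60-fold higher in GC than in TH (adjusted p = 0.00032) and 394-fold lower in OO than in CC (adjusted p = 1.7e-12). Without GC replicate 3 the difference between CC and GC was 1.10 with an adjusted p of 0.056. The AMH probes gave 1.33 and 1.24 for it.

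AMHR2, the receptor that binds AMH, was seen in GC and CC and in no other group. Its level was -3.37, -3.71, -3.74 and -3.08 in GC and -3.69, -3.72, -4.12 and -3.59 in CC, and GC and CC overlapped (adjusted p = 0.68). It was not well above background on any array of TH (-7.09 to -5.93), CC after IVM (-6.75 to -5.55) or OO (-8.34 to -6.34). The gene was dim throughout, with a processed intensity of 30.4 to 68.2 in GC and 31.7 to 54.7 in CC against 3.03 to 8.03 in CC after IVM. AMHR2 was at least 3.51-fold higher in GC than in TH (adjusted p = 1.1e-05) and at least 4.35-fold lower in OO than in CC (adjusted p = 1.8e-07). Of its 6 probes, 5 were above background on all 8 arrays of GC and CC and on no other array. These 5 are not independent, since probes 1 and 2, and probes 3 and 4, are the same sequence spotted again and share 56 bases across the pairs. Probe 5, with the sequence given above, was above background on 0 of 20 arrays, so the AMHR2 reading rests on 1 stretch of the transcript.

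**Figure D1:**
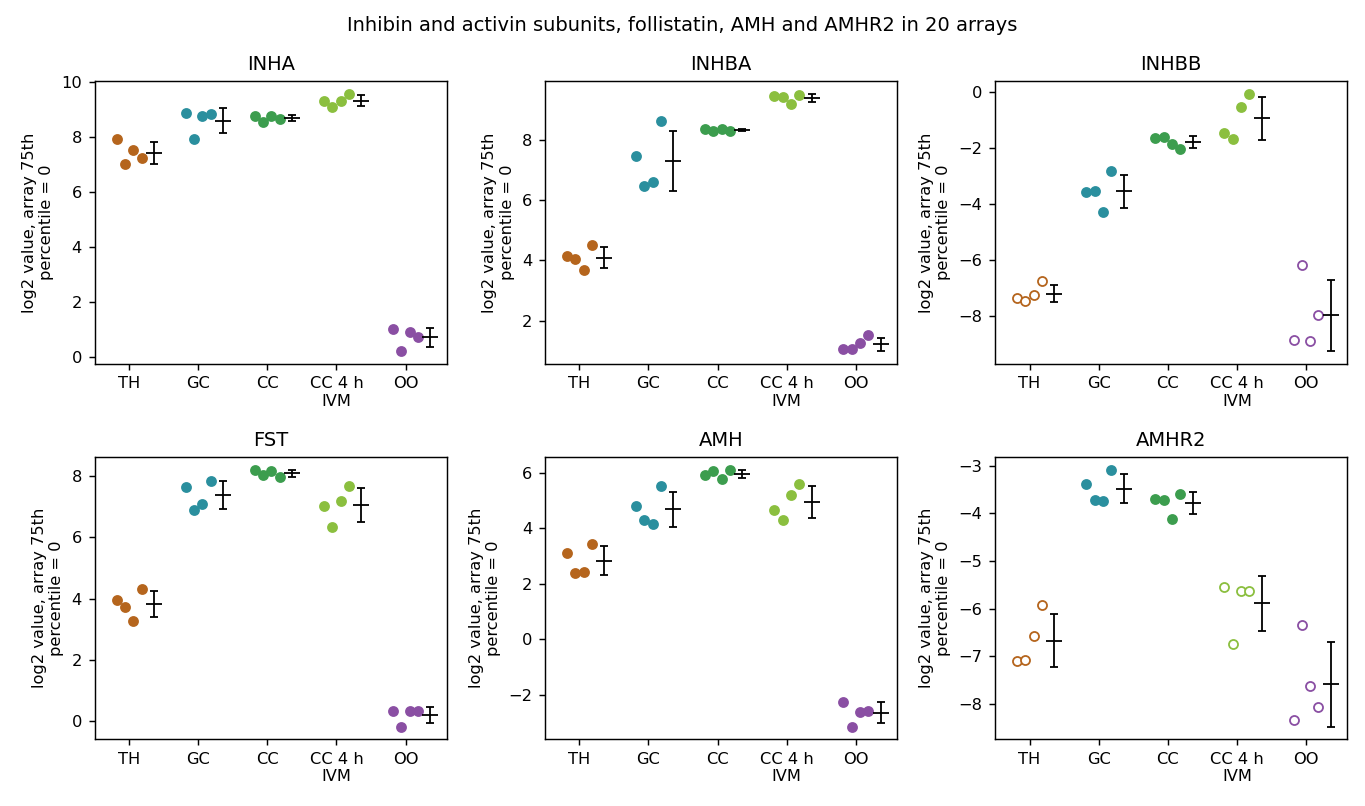
Level of each of the 6 genes (y axis, log2 processed intensity with the 75th percentile of the array at 0) on the 4 arrays of each of 5 groups (x axis, OO is oocytes). Each point is 1 array, open points are arrays on which no spot of the gene was well above background, and bars give the mean and SD beside the points. OO is lowest for INHA, INHBA, FST and AMH, with all 4 of its arrays below the somatic arrays, and the open points of INHBB and AMHR2 are bounds only.

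**Figure D2:**
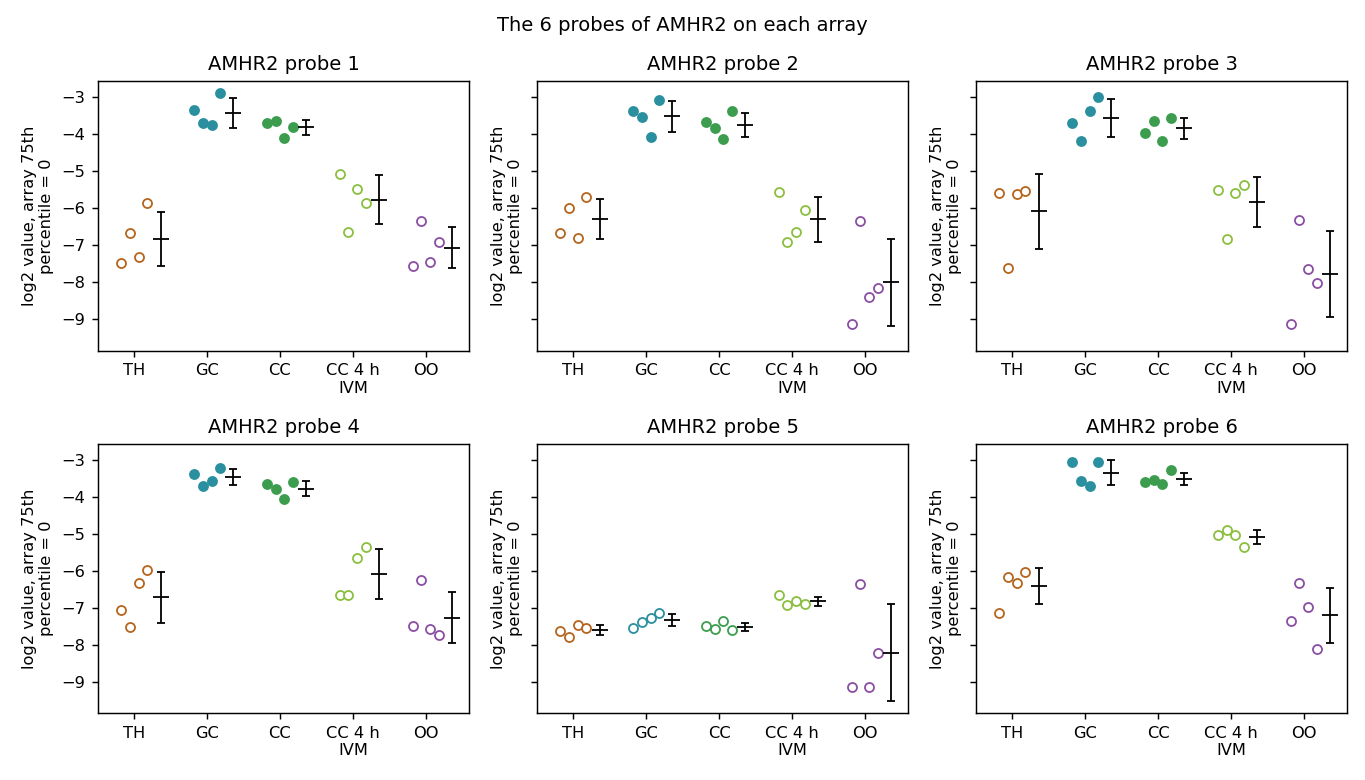
Level of the 6 AMHR2 probes (y axis, log2 processed intensity with the 75th percentile of the array at 0) on the arrays of each group (x axis). Filled points are well above background, open points are not, and bars give the mean and SD. Probes 1 to 4 and 6 are filled in GC and CC only, and probe 5 is open on all 20 arrays.

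All 6 genes were called by the F-test over TH, GC, CC and OO, where 71.3% of all genes were called. All 6 were higher in GC than in TH, against 14.5% of all genes, and all 6 were higher in CC than in TH, against 17.4%. AMH and INHBB were higher in CC than in GC, against 5.28% of all genes, and the other 4 did not pass the test there. All 6 were lower in OO than in GC, against 37.9% of all genes, and all 6 were lower in OO than in CC, against 32% lower and 31.8% higher of all genes. INHA, INHBA, FST, AMH and AMHR2 were also called lower in OO than in TH, against 32.1% of all genes. INHA, INHBA, FST and AMH were lower by 105-fold, 7.32-fold, 12.3-fold and 44.9-fold (adjusted p = 3.2e-06 or lower). AMHR2 (adjusted p = 0.041) and INHBB (adjusted p = 0.17, not called) were under background in both and give no fold. The median over all genes was 0.23 for GC against TH, -0.15 for CC against GC and -0.40 for OO against CC on the log2 scale. The folds of OO include its scaling, as the 75th percentile was 1521 to 2891 in OO, 536 to 657 in CC, 368 to 576 in GC and 424 to 1101 in TH. Before scaling INHBA overlapped between OO (3146 to 5985) and TH (5874 to 24731), while INHA, FST and AMH did not. None of these 4 genes overlapped between OO and CC before scaling. The summed level of the granulosa and cumulus markers was lower in TH than in GC and CC and lowest in OO. Its ranges in GC and CC overlapped. All 6 markers had a higher mean in GC than in TH, but by unequal amounts. FSHR, a granulosa marker in the follicle, differed most, with a level of -3.29 ± 0.70 in TH and 2.13 ± 0.44 in GC. GJA1 was at 5.08 ± 0.01 in TH and 6.48 ± 0.41 in GC. FOXL2 differed by only 0.62 on the log2 scale and did not pass the test (adjusted p = 0.48). The part of granulosa cells in the TH level, and of cumulus cells in the OO level, of these genes was not tested.

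Within slide 1 and within slide 2, with 2 arrays a group, the differences between GC and TH were 0.92 and 1.42 for INHA, 2.86 and 3.54 for INHBA, 3.43 and 3.66 for FST and 1.79 and 1.91 for AMH on the log2 scale. All were in the direction found over both slides. INHA within slide 1 (adjusted p = 0.35) and AMH within each slide (adjusted p = 0.05 and 0.059) did not pass the test. The difference between CC and GC within the slides was 1.45 and 1.12 for AMH and 1.93 and 1.58 for INHBB, and neither passed it (adjusted p of 0.21 to 0.42). For INHA it was 0.26 and -0.10. The differences between OO and CC within the slides were -8.05 and -7.89 for INHA, -7.26 and -6.94 for INHBA, -8.04 and -7.74 for FST and -8.69 and -8.56 for AMH, all called.

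In CC after 4 h of IVM, the genes of this group moved in different directions. INHBA was 2.10-fold higher than in CC (1.07 ± 0.17 on the log2 scale, adjusted p = 0.0011) and INHA 1.56-fold higher (0.64 ± 0.18, adjusted p = 0.02). FST fell by 1.03 ± 0.27 on the log2 scale (adjusted p = 0.016) and AMH by 1.04 ± 0.28 (adjusted p = 0.018), which are 2.04-fold and 2.05-fold. AMHR2 was at least 1.95-fold lower (adjusted p = 0.00052) and was well above background on no IVM array. INHBB did not pass the test (0.84 ± 0.35, adjusted p = 0.071), and its CC and IVM arrays overlapped. The IVM arrays of the other 5 genes did not overlap CC, as the values above show. The share of all genes without overlap between these groups is not given here, so no weight is put on that count.

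These counts stand against many calls on the array. Of all genes, 30.3% were called higher and 15.5% lower after IVM, and 45.8% in either direction. The median difference of all genes was 0.37 on the log2 scale, and 0.046 for the 11891 genes detected on each of the 8 arrays. Relative to the median of all genes, INHA was higher by 0.28, INHBA by 0.70 and INHBB by 0.48, and FST, AMH and AMHR2 differed by -1.40, -1.40 and -2.47. Of the called genes, 6827 were higher and 3505 lower, against 2787 and 3666 after quantile normalization, 14766 and 2948 after normexp background correction, and 3259 and 3493 with dim genes left out.

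The calls of INHA and INHBA depended on how arrays were scaled, while FST and AMH were called lower in all alternatives run. The 75th percentile of the processed intensity was 284 to 396 on the arrays of CC after IVM and 536 to 657 on those of CC. Before scaling, INHA had a processed intensity of 177550 to 258523 after IVM and 230380 to 262541 in CC. INHBA had 201830 to 245933 and 175896 to 208902. The ranges of both genes thus overlapped between the groups before scaling. The brightest spot of an array was at 294203 to 349119 in CC, 297149 to 343631 after IVM and 274412 to 328643 in GC. Both genes thus lay near the top of the range. Whether differences are compressed there, also between CC and GC, was not tested. After quantile normalization the difference was -0.17 for INHA (adjusted p = 0.56) and 0.27 for INHBA (adjusted p = 0.2), so the direction of INHA turned. In the deposited log2 table, centred on each array's median, INHA was at 0.12 (adjusted p = 0.43) and INHBA at 0.62 (adjusted p = 0.00043). FST was at -1.66 and -1.52 in these settings and AMH at -1.42 and -1.53, all called. Before scaling FST had a processed intensity of 26471 to 70484 after IVM and 159026 to 164542 in CC. AMH had 11514 to 29689 and 48995 to 69477. Neither gene overlapped. AMHR2 was at -0.02 after normexp background correction with an offset of 50 (adjusted p = 0.88), and at -0.58 in the deposited table (adjusted p = 0.0019).

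**Figure D3:**
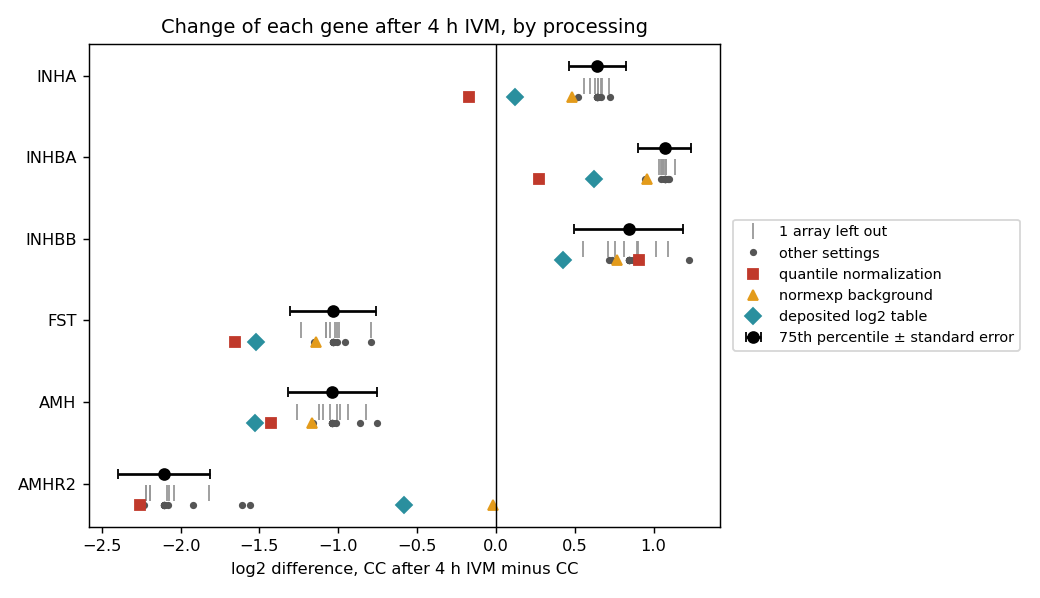
Log2 difference between CC after 4 h IVM and CC (x axis) for the 6 genes (y axis). Black points are the values scaled to the 75th percentile, with the standard error from limma as bars, and the marks under them are the same difference under other settings. FST and AMH stay under 0 in all settings, INHBA stays above 0, INHA lies at -0.17 after quantile normalization and AMHR2 at -0.02 after normexp correction.

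Probes of INHA, INHBA, FST and AMH moved alike after IVM, as did the 5 AMHR2 probes seen in CC. INHA probes gave 0.64 and 0.65, INHBA probes 1.10 and 1.05, FST probes -0.96 and -1.10 and AMH probes -1.21 and -0.86 on the log2 scale, all called over the probes of the array. The INHBB probes gave 0.95 and 0.74, and neither passed (adjusted p = 0.057 and 0.14). The 5 AMHR2 probes seen in CC gave -2.54 to -1.56. AMHR2 probe 5 gave 0.69 (adjusted p = 0.014), the opposite direction, on arrays where it was never well above background.

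Within an array the scaling cancels, so the ratio of a pair of genes shows whether they changed unequally. The log2 ratio of INHBA to INHA, an activin subunit to the inhibin subunit, was -0.35 ± 0.07 in CC and 0.07 ± 0.20 after IVM (SD, n = 4), a difference of 0.43. The log2 ratio of INHBA to FST was 0.21 ± 0.08 in CC and 2.32 ± 0.56 after IVM, a difference of 2.10. In both, all 4 IVM arrays lay above all 4 CC arrays, with a two-sided exact permutation p of 0.0286, the smallest that 4 against 4 arrays allow. Over the 6 ratios tested the adjusted p was 0.0857, so neither passed the correction. The ratio of INHBB to INHBA differed by -0.23 (exact permutation p = 0.571), and after quantile normalization by 0.63. Between CC and GC the 3 ratios differed by 0.95, 0.30 and 0.73, with exact permutation p of 0.143, 0.343 and 0.114, and GC spread far more widely than CC. The difference of INHBA to FST after IVM was 1.93 to 2.14 under the scalings tried.

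**Figure D4:**
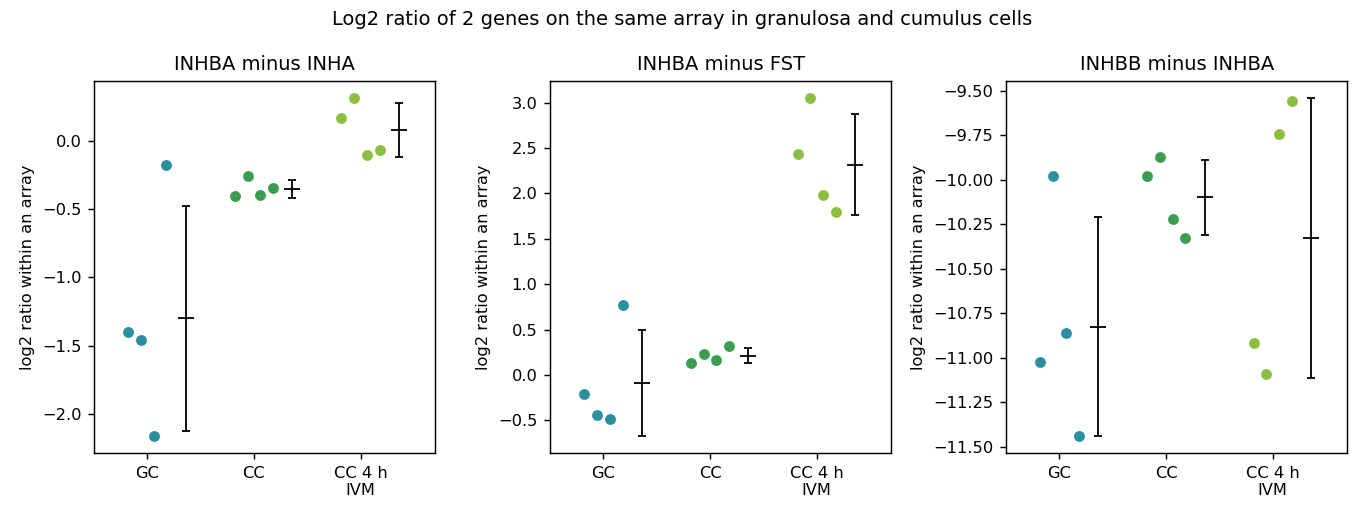
Log2 ratio of 2 genes on the same array (y axis, separate scale in each panel) in GC, CC and CC after 4 h IVM (x axis). Each point is 1 array, and bars give the mean and SD. For INHBA to FST the IVM arrays lie at 1.80 to 3.05 and the CC arrays at 0.14 to 0.32, and for INHBB to INHBA the groups overlap.

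Markers of the other lists moved in the same arrays. Their counts are to be read against the 30.3% of all genes called higher and the 15.5% called lower. Of the 4 cumulus expansion markers analysed, 3 were called higher after IVM and PTX3 did not pass the test (-0.11 on the log2 scale, adjusted p = 0.86). Not every marker planned for the cumulus expansion and oocyte lists was analysed here. HAS2, which makes the hyaluronan of the expanding cumulus, was at -5.56 ± 0.72 in CC and 2.20 ± 0.59 after IVM, and AREG and EREG, EGF-like signals of the preovulatory follicle, were above background on no CC array and on all 4 IVM arrays. The summed level of the granulosa and cumulus list overlapped between CC and IVM, but its members did not move alike. FOXL2, a transcription factor of granulosa cells, FSHR and CYP19A1 were called lower (differences of -1.25 for FSHR and -1.26 for CYP19A1), GJA1 was called higher (0.78), and HSD17B1 and SERPINE2 did not pass the test. The oocyte list went from -0.74 to 1.72 in CC to -2.43 to -0.74 after IVM, ranges that nearly touched. Of its 9 markers, 5 were called lower, and GDF9, BMP15 and FIGLA did not pass the test. DDX4, on no array above background, was called higher. The 5 blood and leukocyte markers were all called higher, CD68 by 2.15 and CD14 by 2.33 among them, and their summed level was -1.62 to 0.54 in CC and 0.48 to 1.89 after IVM, where PTPRC was above background on no array. Of the 3 endothelium markers 2 were called higher, with a summed level of -5.63 to -4.86 in CC and -4.34 to -3.11 after IVM. These were VWF and CDH5, and CDH5 was above background on no array of either group. Of the 8 theca markers 2 were called higher (STAR and LHCGR), and the summed level was 4.66 to 5.05 and 4.52 to 4.90. LHCGR was above background on 2 CC arrays and on no IVM array. The part of these changes, and of the slide, in those of the 6 genes was not tested.

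In TH, GC and CC after IVM, 1 replicate was highest in most of the 6 genes. GC replicate 4 was highest of its group in 5 of the 6 genes, TH replicate 4 in 5 and IVM replicate 4 in 5, and IVM replicate 2 was lowest in 5. In CC and OO no replicate was highest or lowest in more than 3 genes. The Pearson correlation between 2 of the genes over the 20 arrays ran from 0.661 (INHA with AMHR2) to 0.976 (FST with AMH), a description of arrays that share their group structure. Among 15085 genes searched, those with the pattern most like INHA over the 20 arrays were GJA1 and LAPTM4B (r = 0.995 each) and ZDHHC14 (0.993). Those most like INHBA were STRA6, ST3GAL-IV and PAPSS2 (0.98 each), and most like INHBB were HVEC (0.982), HPSE (0.98) and GREB1 (0.977). FST was followed most closely by DNAJC25 (0.995), STAMBPL1 (0.992) and LRRC8D (0.99), AMH by LOXL3 (0.991), FAM3A (0.99) and MDFI (0.989), and AMHR2 by WDR18 (0.965), EMX2 (0.95) and TOX2 (0.947).

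Of 50 other genes listed for these pathways, 48 were analysed here, 44 of them called by the F-test over cell types, which called 71.3% of all genes. Of 8 receptors, 5 were higher and 1 lower in OO than in CC, against 31.8% higher and 32% lower of all genes. Their median difference was 1.36, against -0.40 over all genes and 0.15 for the 10012 genes detected on each of the 16 arrays. ACVR1, a type I receptor that AMH can also use, was at 1.11 ± 0.07 in OO and -2.86 ± 0.19 in CC (adjusted p = 1.2e-12). BMPR1A, another type I receptor of AMH, was at 1.37 ± 0.16 and -1.19 ± 0.13 (adjusted p = 2.1e-10). ACVR1B, the main type I receptor of activin, was above background on 3 OO arrays and on no array of TH, GC or CC, at least 1.46-fold higher in OO than in CC (adjusted p = 0.00012).

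The type II receptors of activin did not share that pattern. ACVR2A was above background on all arrays of TH, GC and CC and on none of OO, at least 3.48-fold lower in OO than in CC (adjusted p = 6.4e-08). ACVR2B was at 0.02 ± 0.31 for GC, -0.14 ± 0.24 for CC, -0.34 ± 0.38 for OO and -1.61 ± 0.47 for TH (GC against TH, adjusted p = 0.00016). TGFBR3, the inhibin coreceptor, had its highest level in TH (-0.59 ± 0.11), with -2.04 ± 0.48 for GC, -2.37 ± 0.29 for OO and -3.49 ± 0.28 for CC (GC against TH, adjusted p = 0.00018, and CC against GC, adjusted p = 0.0008). BMPR1B, a BMP receptor and a further AMH type I receptor, was 7.38-fold lower in CC than in GC (adjusted p = 4.3e-06).

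The largest cell type differences among the rest were in transcription factors, the FSH receptor and feedback targets. NR5A2, a nuclear receptor of granulosa cells, was 57.6-fold higher in CC than in TH (adjusted p = 8.2e-08), where it was above background on 3 arrays, and FSHR, the FSH receptor, was 47.8-fold higher in CC than in TH (adjusted p = 7.2e-09) and 578-fold lower in OO than in CC (adjusted p = 2.1e-12), with only 2 of the 4 OO arrays above background. NR0B1, a nuclear receptor corepressor, was 41.8-fold higher in OO than in CC (adjusted p = 5.5e-11), where it was above background on 3 arrays. PMEPA1, a feedback target of SMAD signals, was 842-fold lower in OO than in TH (adjusted p = 1.1e-14), with 3 of the 4 OO arrays above background. ID2, a BMP target, was at least 68.8-fold lower in OO than in CC (adjusted p = 7.9e-11).

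After IVM, 17 of the 48 were called higher, 16 lower and 15 not, with a median difference of 0.17 on the log2 scale against 0.37 over all genes. Of the 17 called higher, 3 (INHBE, GDF11 and ACVR1C) were not above background on 3 arrays of either group. By role the counts are to be read against the 30.3% called higher and 15.5% lower of all genes, and the roles were not tested against each other. Of 10 further ligands and binding proteins, 7 were higher and 2 lower (median 0.88), or 5 higher and 2 lower of the 8 above background on 3 arrays of either group. Of 7 feedback targets 4 were higher and none lower (median 0.51). Of 11 genes for transcription factors and FSHR, 1 was higher and 7 lower (median -1.38). The SMADs split 3 to 3. SMAD2 and SMAD3, the activin branch, and SMAD1, of the AMH branch, were lower. SMAD4, SMAD7 and SMAD9 were higher, and SMAD5 and SMAD6 did not pass the test.

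The 3 largest rises after IVM were in GREM1, an extracellular BMP antagonist of expanding cumulus (7.40-fold, adjusted p = 6.7e-05), ID1, a BMP target (5.93-fold, adjusted p = 0.0055), and SMAD9, a SMAD of the AMH and BMP branch (4.70-fold, adjusted p = 0.00035). The 3 largest falls by fitted value were in NR5A2 (8.97-fold, adjusted p = 6.6e-05), MSTN, an activin-like ligand (7.06-fold, adjusted p = 0.0034, with only 2 of the 4 IVM arrays above background), and FOXL2. For FOXL2, under background on all IVM arrays, the values give only a bound of at least 4.68-fold (adjusted p = 0.00037), so its place in that order is not settled. GATA4 and NR5A1, factors of gonadal cells named here after their values were seen, were 6.55-fold and 2.63-fold lower (adjusted p = 2.2e-05 and 0.00077). GATA6, from the same list, went the other way and was 2.87-fold higher (adjusted p = 0.0055). Among receptors, ACVR2B fell by 1.17 (adjusted p = 0.0015), TGFBR3 by 1.09 (adjusted p = 0.003) and BMPR1B by 0.81 (adjusted p = 0.045) on the log2 scale. The other receptors among those named, ACVR1, ACVR1B, ACVR2A and BMPR1A, did not pass the test, with differences of 0.03 to 0.74 on the log2 scale.

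**Figure D5:**
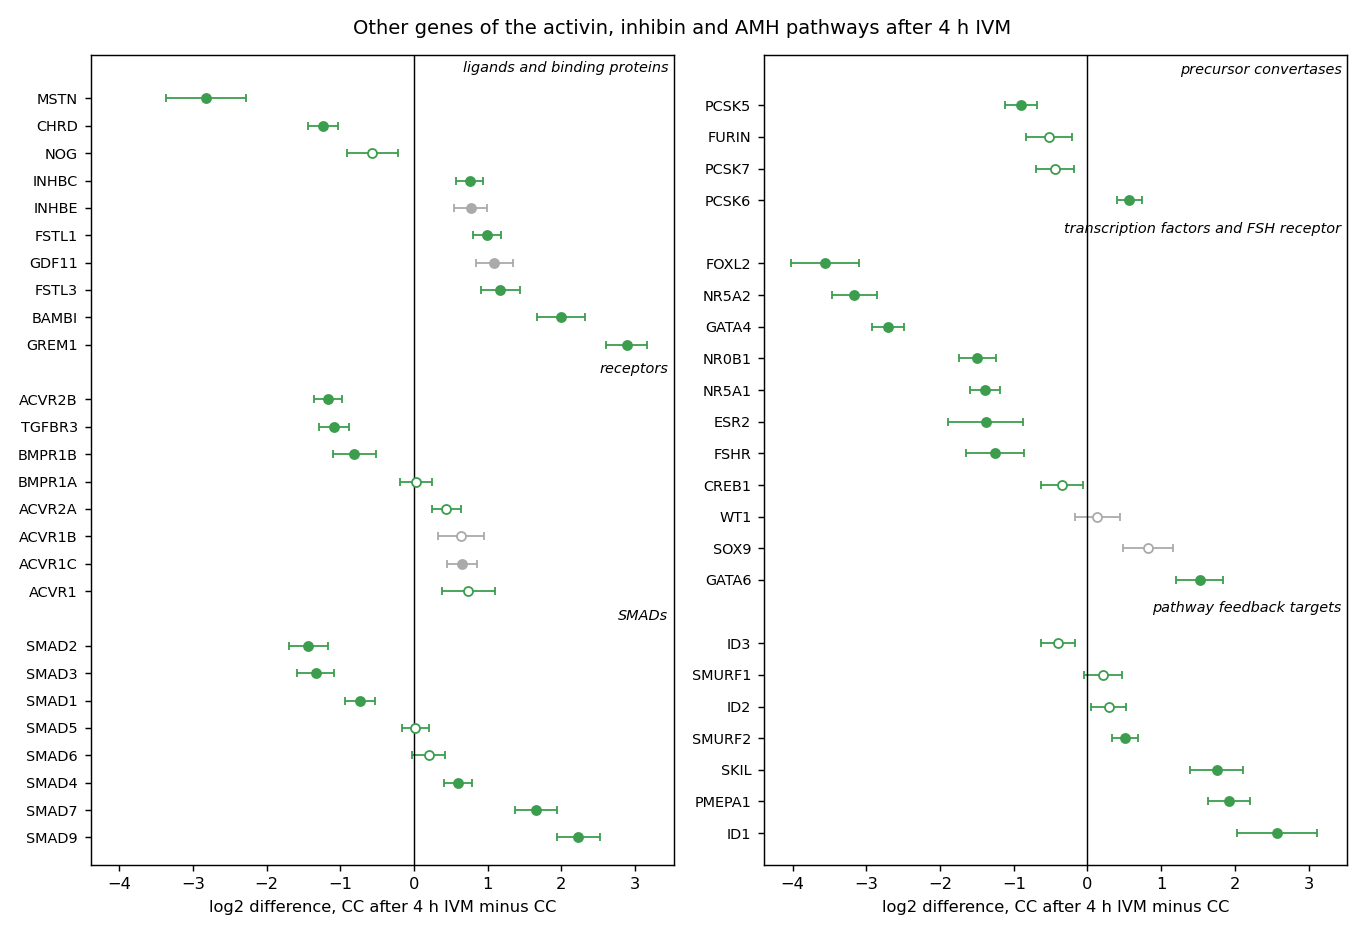
Log2 difference between CC after 4 h IVM and CC (x axis) with its standard error for the 48 other pathway genes (y axis), grouped by role. Filled points passed the test (adjusted p under 0.05 over all genes), open points did not, and grey genes were not above background on 3 arrays of either group. In the transcription factor group 7 of 11 genes are filled on the left of 0, and in the ligand and binding protein group 7 of 10 are filled on the right.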

How the data were processed

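Gene expression was measured in 20 samples on 1-colour bovine arrays, and groups were taken from the sample titles. The authors deposited, for each array, Agilent Feature Extraction 10.7.3.1 output with probes placed on UMD 3.1, in which the processed intensity of a spot is background-subtracted and detrended but not normalized between arrays. They also deposited 1 table of log2 values, which matched log2 of the median pixel signal minus the array's median within 5e-09. Every column of that table was tied to a sample (0 were not). The authors' files also flag spots well above background, which was used for detection.

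Control spots were dropped, as were spots flagged as outliers (at most 23 an array). Each array was scaled by subtracting its 75th percentile on the log2 scale, and a gene's value was the median over its spots. Of the 61325 probes, 9779 had no gene name, and 734 of these were named by RefSeq accession. The tool for tests across genes was limma 3.58.1 under R 4.3.3, with lmFit followed by eBayes, once over the 16 arrays of TH, GC, CC and OO and once over the 8 arrays of CC before and after IVM, and Benjamini-Hochberg adjustment covered all genes of the array. Ratios of genes within an array were compared with exact two-sided permutation tests. Tables were handled in Python 3.11.15 (pandas 2.3.3 and numpy 2.4.6), with scipy 1.17.1 for permutation and matplotlib 3.10.9 for plots. The fits were tested on simulated data. The number of arrays limits the precision.

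The genes, the pathway list and the tests were chosen with earlier results of these data known. Named are the 6 genes, the 3 genes most like each, the 3 largest rises and falls of the pathway list in each fit among called genes whose groups did not overlap, and 7 receptors fixed by name. BMPR2 was not analysed here, and 1 other gene of the list is not reported here. A planned search of promoters for short motifs was not run, as promoter sequences were not used here. The alternatives were other scalings, background correction, the deposited table, probe rules, a filter on dim genes, 1 fit of all arrays, replicate and slide blocks, other variance models, the methods' analysis of variance for the 4 cell types, and leaving out each array. Same-numbered TH and GC arrays deviated together from their group means (correlations of 0.192 to 0.44 over genes above background on all arrays, each pair on 1 slide). TH and GC arrays of different numbers on 1 slide ran from -0.396 to 0.176. Same-numbered GC and CC arrays were also all above 0, at 0.026 to 0.187, and no other pair of groups was throughout. A random slide block and a fit of TH and GC alone with the replicate block were added after seeing the data.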

Additional observations from a re-analysis of the deposited data

Results flagged for a closer look

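In 3 of the 30 sets of 4 replicates tested, 1 array stood apart from the other 3 by more than the limit of Dixon's test, which chance alone passes in about 1 of 20 sets. INHA in GC replicate 2 was at 7.92, with the others at 8.77 to 8.85. FST in OO replicate 2 was at -0.17, with the others at 0.34. AMHR2 in CC after IVM replicate 2 was at -6.75, with the others at -5.63 to -5.55, all under background. Without GC replicate 2 the difference of INHA between CC and GC was -0.14 in place of 0.08, with an adjusted p of 0.77. OO replicate 2 had the lowest share of probes well above background of all arrays, 49.3%. The part of these in the results was not tested beyond leaving the array out.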

How the results depend on the processing

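The F-test called all 6 genes without any 1 array, and the direction from TH to GC and CC and from those to OO held for all 6 genes in all settings. After IVM 5 of the 6 genes were called, 3 after quantile normalization, and 4 to 6 with 1 array left out. INHA after IVM was at -0.17 after quantile normalization, 0.12 in the deposited table, and 0.64 with the replicate block, where its adjusted p was 0.063. It was at 0.56 to 0.72 with 1 array left out, and not called without CC replicate 2 (0.60) or IVM replicate 4 (0.56). INHBA was at 0.27 after quantile normalization. INHBB passed the test after normexp correction (0.77), with arrayWeights (1.22), with slide as a random block (0.84, adjusted p = 0.0067) and without IVM replicate 2 (1.09), within 0.55 to 1.09 when 1 array was left out. The random slide block for IVM had a correlation of -0.26, and the standard error of INHBB was 0.22 with it, against 0.35 without. As all IVM arrays lay on 1 slide, this block cannot take slide out, and its pass for INHBB is not read as a call. A fixed slide block or a fit within slides could not be fitted there. AMHR2 was at -0.02 after normexp correction. The log2 ratio of INHBB to INHBA after IVM was 0.63 after quantile normalization, and between CC and GC it was -0.31 after normexp correction and -0.054 in the deposited table. In the pathway list, 26 genes were higher and 10 lower after IVM with normexp correction, and 10 lower with the brightest probe of a gene, against 17 and 16. With 1 array left out 12 to 19 were higher and 12 to 15 lower. INHA between CC and GC was -0.14 without GC replicate 2 and -0.10 within slide 2, and ran from -0.14 to 0.17 with 1 array left out, and INHBB between OO and TH was 0.025 after quantile normalization, under background in both. FST between CC and GC passed the test in 7 settings, the replicate block among them (adjusted p = 0.048), and INHBA there with the deposited table (1.29) and arrayWeights (1.25). Over all genes, calls after IVM were 3712 higher and 2818 lower without CC replicate 1 and 3827 and 2777 without CC replicate 3, against 6827 and 3505. Genes called higher in CC than in GC numbered 1190, against 1893 with arrayWeights and 85 and 268 within the slides, and those called lower in OO than in CC 7210, against 14720 after normexp correction, 12482 in the deposited table, 11433 with arrayWeights and 11071 without OO replicate 2. The causes of these changes were not tested. Same-numbered arrays were most alike for TH with GC (correlations of 0.192 to 0.44). In a fit of these 8 arrays with the replicate block, chosen after seeing the data, all 6 genes stayed called (adjusted p = 0.0074 or lower). For the other pairs of groups the pairing was weaker or absent (correlations of -0.27 to 0.33, with 0.026 to 0.187 for GC and CC, and -0.23 to -0.039 for IVM). In the fit of all 4 cell types and in that of IVM the replicate block changed no other call of the 6 genes apart from AMHR2 between OO and TH (adjusted p = 0.052).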
